A study of Homo sapiens with 12 samples.

Results

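Mitochondrial fatty acid oxidation was examined through 9 of the 60662 genes in the deposited expression table. The 9 genes were listed by name, with earlier results of these data known. They were the regulators PPARA and PPARGC1A, the carnitine palmitoyltransferases CPT1A and CPT2, the acyl-CoA dehydrogenases ACADM and ACADVL, the trifunctional protein subunits HADHA and HADHB, and the thiolase ACAA2. Although peroxisomal oxidation was within the scope of the choice, none of the 9 encodes a peroxisomal beta-oxidation enzyme, so peroxisomal genes are described further on from a separate list. The cells were NCI-H295R, a human adrenocortical carcinoma line that makes cortisol. After 12 h without serum they received, for 24 h, DMSO alone at 0.1% (vehicle, VEH), 30 µM of CJ28 or 30 µM of metyrapone (MET). CJ28 is a benzimidazolylurea studied as an inhibitor of cortisol synthesis, and metyrapone is an inhibitor of 11β-hydroxylase. Each group had 4 biological replicates, all of this single cell line, and RNA depleted of ribosomal RNA was sequenced. The labels give no genetic change in any group.

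Long-chain fatty acids are activated to acyl-CoA, passed across the mitochondrial membranes as carnitine esters, and shortened in the matrix by a repeated cycle of dehydrogenation, hydration, dehydrogenation and thiolysis. PPARA is a nuclear receptor activated by fatty acids, and PPARGC1A is a coactivator that works with it and with estrogen-related receptors on genes of this pathway. In the adrenal cortex the pathway shares its mitochondria with the first step of steroid synthesis.

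Values are in TPM, a length-corrected measure of how much of a library's transcripts come from a gene, so levels of different genes can be set side by side. Fold changes are differences of log2(TPM + 0.1) from limma, with standard errors (SE), and a gene was called when its p, adjusted by the Benjamini-Hochberg method over the 16815 genes tested, was under 0.05. All 9 genes met the requirement for testing, 4 or more samples at 0.5 TPM or above. The number of reads behind a value is not in the table, so counting error and detection limits are unknown.

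Nuclear protein-coding genes together held 24.3% to 24.8% of TPM in VEH, 21.3% to 21.4% in CJ28 and 24.1% to 24.6% in MET, and the median change over all tested genes, as log2, was -0.13 for CJ28 against VEH and -0.026 for MET against VEH. Changes of the 9 genes with CJ28 are therefore also given after division by median-of-ratios factors, which brought that median to 0.014. Of 10 adrenocortical markers, 9 were called lower and 0 higher with CJ28, against 37.1% lower and 19.9% higher of all tested genes. The other marker, SCARB1, had a mean of 142 TPM in VEH and 164 TPM in CJ28. It was not called (log2 fold change 0.20), but was called higher after median-of-ratios scaling (0.35). The summed level of the 10 markers was 439 to 467 TPM in VEH, 273 to 334 in CJ28 and 428 to 446 in MET. The authors report that CJ28 altered the mRNA of NR5A1, STAR, CYP11A1, HSD3B2 and CYP17A1, which are among these markers. The 24 markers of hepatocytes, fibroblasts, endothelium, leukocytes and chromaffin cells stayed low. No such list summed above 1.83 TPM in any sample, and TH and CD3E were listed at 0 throughout. Fewer cells of a type and less RNA per cell cannot be told apart in these bulk samples, and the part of these shifts in the results below was not tested.

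In VEH cells the order of levels was ACADVL (114 TPM), ACADM (51.2), ACAA2 (29.8), HADHA (28.0), HADHB (26.1), CPT2 (9.04), CPT1A (4.86), PPARA (3.10) and PPARGC1A (1.35). No neighbours in this order overlapped in their 4 VEH samples. HADHA, with 26.8 to 29.0 TPM, lay just under ACAA2, with 29.1 to 30.3 TPM, and just over HADHB, with 25.0 to 26.7 TPM. The enzymes of the matrix were thus listed above both carnitine palmitoyltransferases, and these above both regulators. Together the 9 genes held 0.108% to 0.111% of the nuclear protein-coding TPM in VEH, 0.115% to 0.122% in CJ28 and 0.108% to 0.110% in MET.

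CJ28 changed 5 of the 9 genes relative to VEH. PPARGC1A rose, CPT1A, CPT2, HADHA and ACAA2 fell, and PPARA, ACADVL, ACADM and HADHB were not called. These counts are near the background, since 57.0% of all tested genes were called in this comparison, 19.9% higher and 37.1% lower. The median log2 fold change was -0.043 over the 9 genes and -0.13 over all tested genes. After median-of-ratios scaling 8 of the 9 were called, 4 higher and 4 lower, against 55.6% of all tested genes, where ACADVL, ACADM and HADHB joined PPARGC1A among the higher genes and ACADM and HADHB had changed sign. In TPM, the CJ28 and VEH samples did not overlap for the same 5 genes, against 50.3% of all tested genes.

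**Figure D1:**
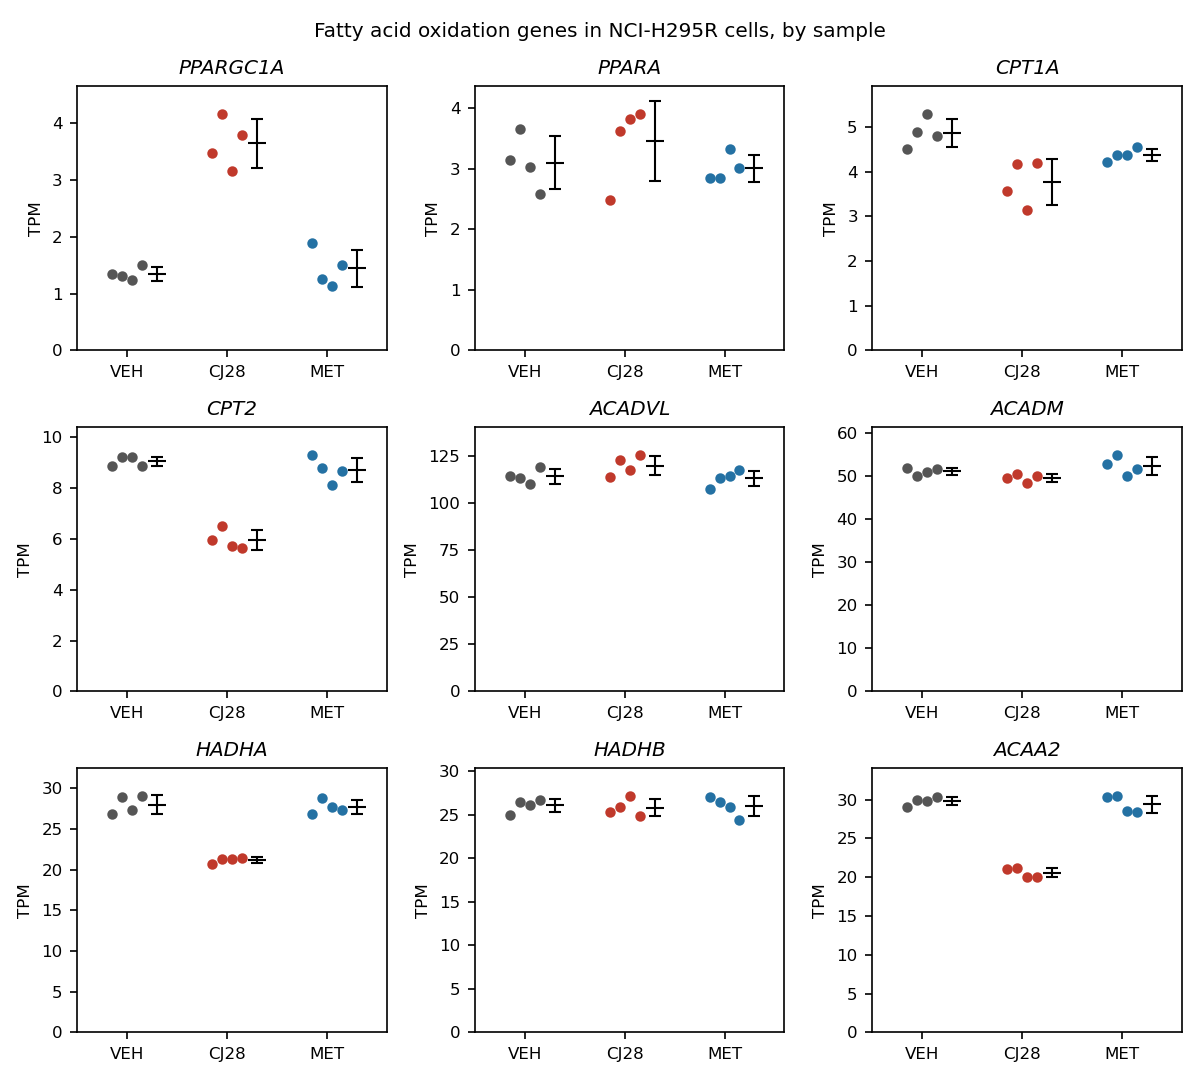
TPM of each of the 9 genes (vertical axes, linear and starting at 0) in the 4 VEH, 4 CJ28 and 4 MET samples, as points in order of replicate number, with the mean and SD (n = 4) to the right of each group. PPARGC1A is higher in every CJ28 sample than in any other sample, while CPT1A, CPT2, HADHA and ACAA2 are lower in every CJ28 sample.

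Of the regulators, PPARGC1A (ENSG00000109819.9, chromosome 4, 23755041 to 23904089 on GRCh38) had 1.35, 1.30, 1.23 and 1.51 TPM in the VEH samples, and 3.47, 4.15, 3.15 and 3.78 TPM in the CJ28 samples. Every CJ28 sample lay above every VEH and MET sample, the highest of which was 1.88 TPM in MET. Against VEH, CJ28 changed it by 1.37 on the log2 scale (SE 0.14, adjusted p = 3.8e-06 in limma), or 2.58-fold for TPM + 0.1. The groups also separated in the exact permutation test (two-sided, with p at its lowest possible value for these group sizes, 0.0286). After median-of-ratios scaling the change was 1.51. It stayed between 0.98 and 1.62 over 17 alternative settings and was called in each of them.

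PPARA (ENSG00000186951.16, chromosome 22, 46150521 to 46243756) had 3.14, 3.65, 3.03 and 2.59 TPM in VEH and 2.49, 3.63, 3.83 and 3.90 TPM in CJ28. The groups overlapped. The first CJ28 sample was the lowest of all 12, the second lay just under the highest VEH sample, and the other 2 lay above every VEH and MET sample. The log2 fold change was 0.14 (SE 0.14, 95% interval -0.16 to 0.44, adjusted p = 0.403 in limma). Without CJ28 replicate 1 it was 0.29 and called (adjusted p = 0.0355 in limma). With TPM computed over nuclear protein-coding genes alone it was 0.35 (adjusted p = 0.0379), whereas after median-of-ratios scaling it was 0.29 and not called (adjusted p = 0.101).

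Both carnitine palmitoyltransferases fell. CPT1A (ENSG00000110090.13, chromosome 11, 68754620 to 68844410), the outer-membrane enzyme that makes acylcarnitine and is inhibited by malonyl-CoA, had 4.50, 4.88, 5.28 and 4.79 TPM in VEH. In CJ28 it had 3.56, 4.18, 3.15 and 4.19 TPM, all below the lowest VEH sample. The log2 fold change was -0.37 (SE 0.088, adjusted p = 0.00334 in limma). It was -0.22 after median-of-ratios scaling (adjusted p = 0.0464), and -0.17 over nuclear protein-coding genes alone, where it was no longer called (adjusted p = 0.113).

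CPT2 (ENSG00000157184.7, chromosome 1, 53196792 to 53214197), the inner-membrane enzyme that turns acylcarnitine back into acyl-CoA, was the member with the largest decrease. It had 8.88, 9.21, 9.20 and 8.88 TPM in VEH and 5.94, 6.51, 5.71 and 5.64 TPM in CJ28, with a wide gap between the groups. The log2 fold change was -0.60 (SE 0.056, adjusted p = 1.49e-06 in limma), so that the level fell by 33.9%, and -0.45 after median-of-ratios scaling.

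The acyl-CoA dehydrogenases catalyse the first step of each cycle, ACADVL on very long and long chains and ACADM on medium chains. ACADVL (ENSG00000072778.20, chromosome 17, 7217125 to 7225266) had 114, 113, 109.8 and 119 TPM in VEH and 114, 123, 117 and 125 TPM in CJ28, and the groups overlapped. Its log2 fold change was 0.069 (SE 0.039, 95% interval -0.016 to 0.15, adjusted p = 0.152 in limma). ACADM (ENSG00000117054.13, chromosome 1, 75724347 to 75787575) had 51.9, 50.2, 51.1 and 51.6 TPM in VEH and 49.6, 50.5, 48.5 and 50.1 TPM in CJ28. Only CJ28 replicate 2 lay within the VEH range, and the log2 fold change was -0.043 (SE 0.032, 95% interval -0.11 to 0.026, adjusted p = 0.267 in limma).

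Relative to the other genes, these dehydrogenases moved upwards. Median-of-ratios scaling gave log2 fold changes of 0.22 for ACADVL (adjusted p = 0.000243 in limma) and 0.11 for ACADM (adjusted p = 0.0194), so that both were called higher and ACADM changed sign. ACADVL overlaps DLG4 on the opposite strand over 2717 bases, and DLG4 had 4.32 TPM in VEH and 6.73 TPM in CJ28. ACADM overlaps RABGGTB on its own strand over 1379 bases, and RABGGTB went from 30.9 to 40.7 TPM. Whether the authors' counting used strand is not given in the sources used here, and the part of these neighbours in the values was not tested.

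The trifunctional protein of the inner membrane carries out the remaining steps on long chains. HADHA encodes its alpha subunit, with the hydratase and dehydrogenase activities, and HADHB its beta subunit, with the thiolase activity. The genes stand head to head on chromosome 2 and their RefSeq start sites, 26244632 for HADHA on the minus strand and 26244939 for HADHB on the plus strand, are 307 bases apart. The stretch common to the RefSeq promoter windows of both genes (250 bases before to 50 after each start site) is 194 bases long and lies between the start sites. It is shown because the genes on either side of it changed unequally with CJ28.
HADHA and HADHB, chr2:26244689-26244882, GRCh38.p14, plus strand (5′ to 3′, reading towards HADHB): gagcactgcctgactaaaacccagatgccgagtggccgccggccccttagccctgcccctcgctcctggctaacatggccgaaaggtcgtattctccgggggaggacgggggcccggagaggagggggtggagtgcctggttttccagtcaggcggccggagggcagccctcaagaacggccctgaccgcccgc

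HADHA (ENSG00000084754.12, 26190635 to 26244672) had 26.8, 28.9, 27.3 and 29.0 TPM in VEH and 20.7, 21.3, 21.3 and 21.5 TPM in CJ28, with no overlap. Its log2 fold change was -0.40 (SE 0.037, adjusted p = 1.29e-06 in limma), so that the level fell by 24.2%, and -0.25 after median-of-ratios scaling. HADHB (ENSG00000138029.14, 26243170 to 26290465) had 25.0, 26.5, 26.1 and 26.7 TPM in VEH and 25.3, 25.9, 27.1 and 24.8 TPM in CJ28. These groups overlapped almost fully, and the log2 fold change was -0.017 (SE 0.042, 95% interval -0.11 to 0.074, adjusted p = 0.758 in limma). After median-of-ratios scaling HADHB was called higher, with 0.14 (adjusted p = 0.0252).

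The ratio of HADHA to HADHB within a sample does not depend on the share of TPM taken by other transcripts. It was 1.07, 1.09, 1.05 and 1.09 in the VEH samples and 0.815, 0.822, 0.787 and 0.867 in the CJ28 samples. HADHA was thus above HADHB in every VEH sample and below it in every CJ28 sample. The mean log2 ratio was 0.10 ± 0.028 (SD, n = 4) in VEH and -0.28 ± 0.057 in CJ28, a difference of -0.39 (exact permutation test, p = 0.0286). In MET the ratio was 0.993, 1.09, 1.07 and 1.12, which overlapped VEH (difference of log2 ratios -0.0088, exact permutation test, p = 0.8). CJ28 and MET differed by -0.38 (exact permutation test, p = 0.0286). In the authors' gene models the genes overlap over 1503 bases on opposite strands.

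**Figure D2:**
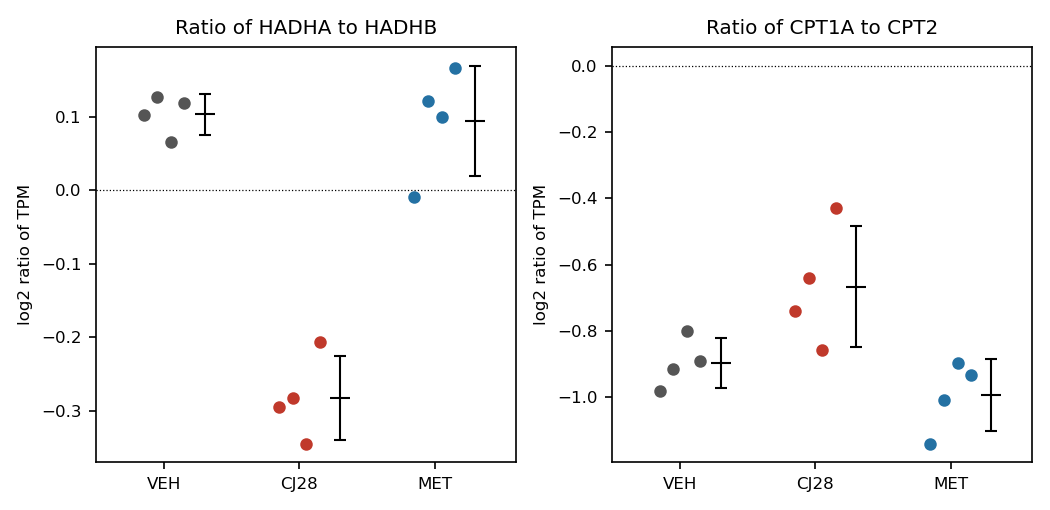
Log2 ratio of TPM (vertical axes) of HADHA to HADHB on the left and of CPT1A to CPT2 on the right, by sample and group, with the mean and SD (n = 4) to the right of the points and a dotted line at equal TPM. The CJ28 samples lie below 0 for HADHA to HADHB and apart from all VEH and MET samples, while for CPT1A to CPT2 they overlap VEH.

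ACAA2 (ENSG00000167315.18, chromosome 18, 49782164 to 49813953), the soluble matrix thiolase that acts on shorter chains, had 29.1, 30.0, 29.8 and 30.3 TPM in VEH and 21.0, 21.2, 20.1 and 20.1 TPM in CJ28. No CJ28 sample came near the VEH range. The log2 fold change was -0.53 (SE 0.036, adjusted p = 7.57e-08 in limma), so that the level fell by 30.8%, and -0.38 after median-of-ratios scaling. The decreases of CPT2, HADHA and ACAA2 were called in all 17 alternative settings, with the smallest change for each found over nuclear protein-coding genes alone (-0.40, -0.20 and -0.33).

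The ratio of the carnitine palmitoyltransferases overlapped between CJ28 and VEH. The value of CPT1A over CPT2 was 0.507, 0.530, 0.574 and 0.539 in VEH, 0.599, 0.642, 0.552 and 0.743 in CJ28, and 0.454, 0.497, 0.538 and 0.524 in MET. CJ28 replicate 3 lay among the VEH samples, and the difference of mean log2 ratios between CJ28 and VEH, 0.23, missed the threshold (exact permutation test, p = 0.0571). CJ28 and MET did not overlap, with a difference of 0.33 (exact permutation test, p = 0.0286), and MET and VEH differed by -0.097 (exact permutation test, p = 0.171).

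Metyrapone called 0 of the 9 genes against VEH in limma, and 0 had an unadjusted p under 0.05. The background was 0.00595% of the tested genes at an adjusted p under 0.05, that is, 1 gene of 16815. In TPM, MET and VEH did not overlap for 2.81% of all tested genes and for 0 of the 9. The lowest unadjusted p belonged to CPT1A, which had 4.21, 4.37, 4.36 and 4.54 TPM in MET, with only MET replicate 4 inside the VEH range. Its log2 fold change was -0.15 (SE 0.088, 95% interval -0.34 to 0.042, adjusted p = 0.933 in limma, exact permutation p = 0.0571).

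For the other 8 genes the log2 fold change for MET against VEH ranged from -0.054 for CPT2 to 0.071 for PPARGC1A. PPARGC1A had 1.88, 1.26, 1.13 and 1.50 TPM in MET, a wider spread than in VEH, and its 95% interval ran from -0.24 to 0.38. PPARA had 2.85, 2.84, 3.32 and 3.02 TPM in MET, within the VEH range. The matrix enzymes were measured more closely. Their 95% intervals for MET against VEH were -0.099 to 0.071 for ACADVL, -0.036 to 0.10 for ACADM, -0.096 to 0.064 for HADHA, -0.098 to 0.084 for HADHB and -0.098 to 0.059 for ACAA2.

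Set directly against each other at 30 µM and 24 h, CJ28 and MET differed in 4 of the 9 genes, 1 higher and 3 lower in CJ28. This comparison uses the same CJ28 samples as the one against VEH. Its background was 55.5% of tested genes, 20.9% higher and 34.6% lower, and 50.2% of all tested genes did not overlap. PPARGC1A was higher in CJ28 by 1.29 (SE 0.14, adjusted p = 6.37e-06 in limma). CPT2 (-0.54), HADHA (-0.39) and ACAA2 (-0.51) were lower, with adjusted p of at most 3.7e-06 in limma. After median-of-ratios scaling these differences were 1.41 for PPARGC1A, -0.42 for CPT2, -0.26 for HADHA and -0.39 for ACAA2, all called. CPT1A was lower in every CJ28 sample than in any MET sample, but its difference of -0.22 was just short of the threshold (adjusted p = 0.0521 in limma). It was called without CJ28 replicate 2 (-0.27) and without CJ28 replicate 4 (-0.27), but it shrank to -0.098 after median-of-ratios scaling (adjusted p = 0.352 in limma) and to -0.031 over nuclear protein-coding genes alone (adjusted p = 0.774).

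PPARA, ACADVL, ACADM and HADHB were not called between CJ28 and MET. Their 95% intervals were -0.12 to 0.48, -0.002 to 0.17, -0.15 to -0.008 and -0.10 to 0.081. PPARA was called without CJ28 replicate 1 (0.33), ACADVL also without that sample (0.11), and ACADM without MET replicate 3 (-0.099). After median-of-ratios scaling the values were 0.30 for PPARA, 0.20 for ACADVL, 0.044 for ACADM and 0.11 for HADHB, with a call for ACADVL and a change of sign for ACADM and HADHB. Over nuclear protein-coding genes alone all 4 were called higher (0.37, 0.27, 0.11 and 0.18).

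**Figure D3:**
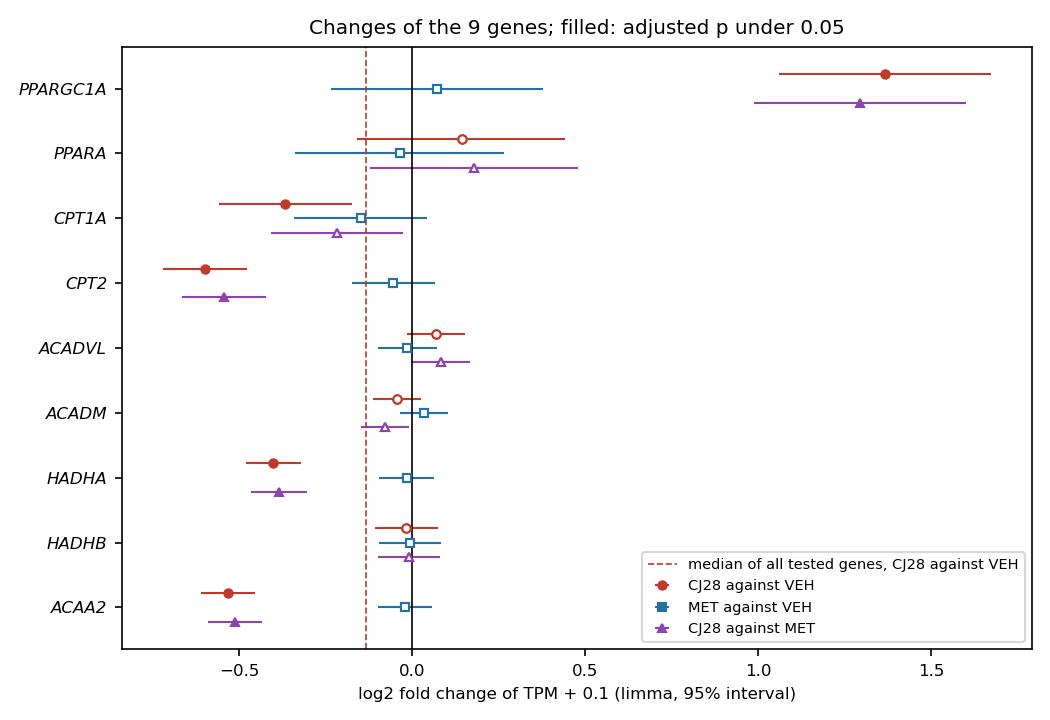
Log2 fold change of TPM + 0.1 from limma with its 95% interval (horizontal axis) for the 9 genes (vertical axis) in the 3 comparisons, with filled symbols at an adjusted p under 0.05 and a dashed line at the median of all tested genes for CJ28 against VEH (-0.13). PPARGC1A lies far to the right in both comparisons with CJ28, CPT2, HADHA and ACAA2 lie to the left, and the intervals for MET against VEH include 0 for every gene.

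The 79 other genes of the pathway, its control and related steps gave a similar share of calls. Of the 65 that were tested, 38 (58.5%) were called for CJ28 against VEH, 14 higher and 24 lower, against the background of 57.0%. After median-of-ratios scaling there were 37, 19 higher and 18 lower. For MET against VEH, 0 of the 65 were called in limma. An unadjusted p under 0.05 was found for 5 of them, against 874 of all 16815 tested genes. The groups did not overlap for 2 of the 65, against 2.81% of all tested genes. The 2 were ACADSB (-0.25) and PPRC1 (-0.23), named here after their values were seen.

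Of 7 tested genes of fatty acid activation and uptake, 4 fell and 0 rose (57.1%, against 57.0% of all tested genes). After median-of-ratios scaling 3 were called lower and 1 higher, and over nuclear protein-coding genes alone 3 lower and 2 higher. ACSL3, an acyl-CoA synthetase of the endoplasmic reticulum and lipid droplets, went from 11.0 ± 0.40 to 6.19 ± 0.51 TPM (log2 fold change -0.82). SLC27A4, a fatty acid transport protein with synthetase activity, changed by -0.68, and ACSL6, another synthetase, by -0.59. CD36, a fatty acid receptor of the cell surface, changed by -0.17, which was not called after median-of-ratios scaling (-0.018) and changed sign over nuclear protein-coding genes alone (0.034).

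In the carnitine shuttle, 3 of the 6 genes beside CPT1A and CPT2 were called, 1 higher and 2 lower, against 57.0% of all tested genes. After median-of-ratios scaling these counts were the same. CROT, the peroxisomal carnitine octanoyltransferase, went from 16.2 ± 2.0 to 7.83 ± 0.68 TPM (-1.04), and CRAT, carnitine acetyltransferase, from 15.3 ± 0.96 to 9.52 ± 0.29 TPM (-0.68). CPT1B, the muscle form of the entry enzyme, rose from 3.81 ± 0.46 to 5.03 ± 0.30 TPM (0.40), opposite to CPT1A. CPT1B lies within the readthrough gene CHKB-CPT1B on the same strand, at 1.82 TPM in VEH and 2.09 TPM in CJ28, between which RSEM may have divided reads. SLC25A20, the carrier between the steps of CPT1A and CPT2, had a log2 fold change of -0.071 and was not called.

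Of the 10 tested genes of mitochondrial beta-oxidation beside the members, 5 fell and 2 rose. The background was 37.1% of all tested genes lower and 19.9% higher. After median-of-ratios scaling 5 of the 10 were called lower and 3 higher, with 55.6% of all tested genes called. ECI2, an enoyl-CoA isomerase of unsaturated chains, went from 65.2 ± 1.7 to 33.6 ± 1.5 TPM (-0.95). ECHS1, the short-chain hydratase, went from 58.3 ± 1.2 to 35.1 ± 0.47 TPM (-0.73). ACADSB, the dehydrogenase of short branched chains, changed by -0.87. In contrast ACAD11, a dehydrogenase with preference for long chains, rose from 3.39 ± 0.26 to 8.76 ± 0.62 TPM (1.35, SE 0.090), close to the size of the increase in PPARGC1A. Of the 3 genes that pass electrons from the dehydrogenases to the respiratory chain, ETFB (-0.40) and ETFDH (-0.32) fell and 0 rose (66.7% called, against 57.0%). ETFDH was not called after median-of-ratios scaling.

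Peroxisomal genes were divided. Of 15 tested, 6 rose and 4 fell (66.7% called, against 57.0% of all tested genes, 19.9% higher and 37.1% lower). After median-of-ratios scaling 6 were called higher and 3 lower. ABCD3, a transporter of the peroxisomal membrane, changed by -0.64. PHYH, which begins the breakdown of phytanic acid, rose from 8.54 ± 0.68 to 13.3 ± 0.72 TPM (0.64), and ACOX3, an acyl-CoA oxidase of branched chains, rose by 0.47.

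Among the other regulators, 14 of 16 were tested, and 2 rose and 5 fell. The background was 19.9% of all tested genes higher and 37.1% lower. After median-of-ratios scaling 4 were called higher and 2 lower, with 55.6% of all tested genes called. Over nuclear protein-coding genes alone 5 were called higher and 2 lower, with 65.6% of all tested genes called. The 2 that rose without scaling were estrogen-related receptors, nuclear receptors that PPARGC1A coactivates. With scaling by median of ratios, RXRB (0.23), a partner of PPARA, and NCOR1 (0.21), a corepressor, were also called higher, both named here after their values were seen. ESRRA had 4.83, 5.26, 5.11 and 5.32 TPM in VEH and 8.52, 8.81, 8.49 and 8.89 TPM in CJ28 (log2 fold change 0.75, SE 0.056, adjusted p = 1.94e-07 in limma). ESRRG had 10.6, 11.7, 9.13 and 10.2 TPM in VEH and 16.7, 16.6, 15.9 and 15.9 TPM in CJ28 (0.64, SE 0.068). Neither overlapped between the groups. LPIN1, a phosphatidate phosphatase that also acts as a coactivator, changed by -0.57, and ACACB, which makes the malonyl-CoA that inhibits CPT1 enzymes, by -0.53.

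Among the listed target genes of PPARA, only 6 of 15 passed the filter. Of these 6, 3 were called, 2 higher and 1 lower. The background was 57.0% of all tested genes, 19.9% higher and 37.1% lower. PDK4, the kinase that inhibits pyruvate dehydrogenase, went from 125 ± 7.9 to 174 ± 4.5 TPM (0.48), and FABP3, a fatty acid binding protein, from 27.5 ± 2.1 to 48.0 ± 3.1 TPM (0.80). TXNIP, an inhibitor of thioredoxin, went from 30.2 ± 1.0 to 13.0 ± 1.2 TPM (-1.22). The mixed direction of the called target genes thus rested on TXNIP alone. In ketone body metabolism, OXCT1, which begins the use of acetoacetate, changed by -0.59, while BDH1 and ACAT1 were not called. The 26 non-member genes that qualified for naming had the same direction after median-of-ratios scaling, and 24 of them were called. Over nuclear protein-coding genes alone 24 were again called in the same direction, ETFDH was not called, and CD36 changed sign without a call. These 26 had been picked as called genes with the largest changes, so they do not stand for all 38 calls. PPRC1, called outside the 26 (-0.22), was not called after median-of-ratios scaling (-0.066).

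**Figure D4:**
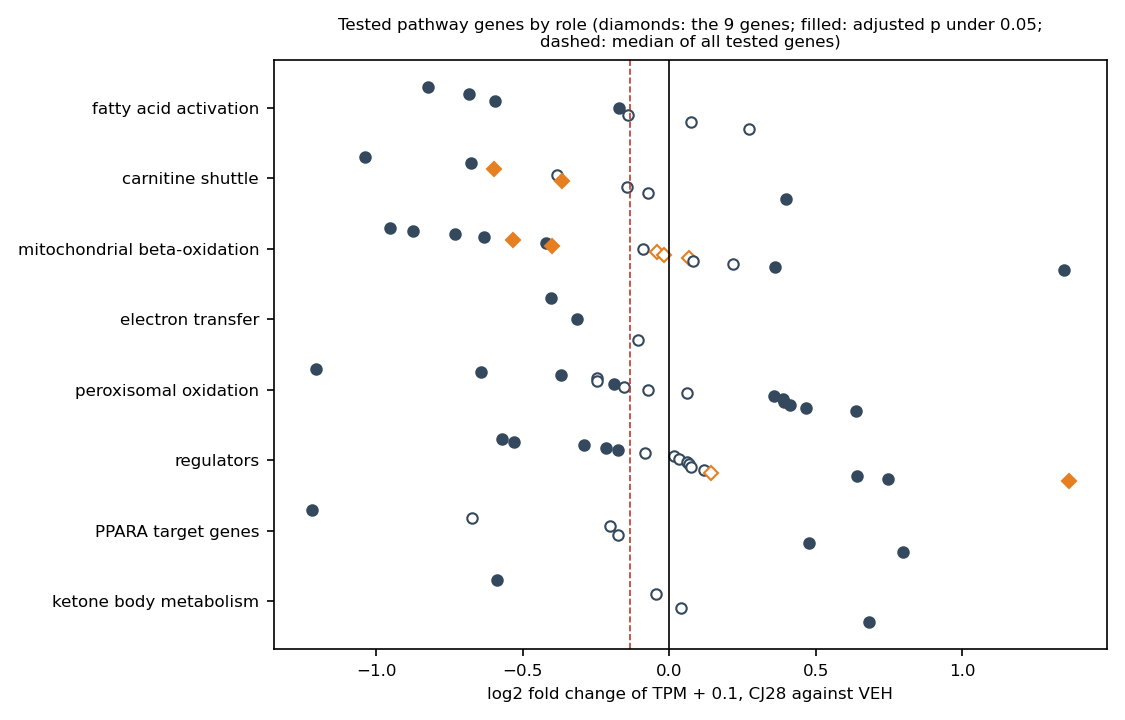
Log2 fold change of TPM + 0.1 for CJ28 against VEH (horizontal axis) of every tested pathway gene, in rows by role, with diamonds for the 9 genes, circles for the others, filled symbols at an adjusted p under 0.05 and a dashed line at the median of all tested genes (-0.13). Filled symbols lie on both sides of the line in most rows, with PPARGC1A (1.37) and ACAD11 (1.35) farthest to the right.

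RefSeq promoter windows of 300 bases were found for all 9 genes, 12 windows in all, since PPARGC1A, PPARA and ACADVL each have more than 1. For PPARGC1A the start sites were 23881101, within the authors' gene model, and 24472905, which lies beyond it. Both strands were searched for 4 sets of letters. These were AGGTCA, the hexamer bound by nuclear receptors, AGGTCANAGGTCA, its direct repeat bound by PPARA with its partner, TCAAGGTCA, bound by estrogen-related receptors, and TGACGTCA, the cAMP response element. The direct repeat and the receptor element contain the hexamer. None of the 12 windows held any of them, against 13.8%, 0.0228%, 0.353% and 1.85% of the 35116 windows in the RefSeq table. This says only that these exact letters are not in these windows, and sequence around other start sites was not searched.

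For each of the 9 genes, the gene with the most similar log2(TPM + 0.1) over the 12 samples was sought among tested genes that averaged 1 TPM or more. It was ETV5 for PPARGC1A (Pearson's r = 0.988), ACVR1B for CPT1A (0.954), HSPA12A for CPT2 (0.992), YWHAZ for HADHA (0.995) and PSMC1 for ACAA2 (0.997). It was ZNF324B for PPARA (0.892), MICALL1 for ACADVL (0.910), AKAP1 for ACADM (0.882) and ERLIN2 for HADHB (0.877). These values are a description over 12 samples that share 3 groups, chosen as the highest of 13305 genes, and the difference between CJ28 and the other groups makes up much of them.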

How the data were processed

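RNA-seq of 12 NCI-H295R samples was used, 4 each of VEH, CJ28 and MET, grouped by their titles. The authors trimmed reads with Cutadapt (version 2.8), mapped them to GRCh38 with STAR (version 2.7.10b), quantified genes with RSEM (version 1.3.3) and deposited TPM to 2 decimals, the only values used. The annotation release and the strand setting are not given in the sources used here. TPM is not a count, so no count model was fitted, and RSEM may split reads among similar or overlapping genes. Replicates are called biological, but separate cultures are not described, so p-values measure the spread between these samples.

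Here, log2(TPM + 0.1) of the 16815 genes with at least 0.5 TPM in at least 4 samples was fitted in limma (version 3.58.1, R version 4.3.3) with all 12 samples, no covariates and eBayes with a trend, two-sided. This fit was checked on simulated data. Single values were compared by exact permutation tests in scipy (version 1.17.1), and figures drawn with matplotlib (version 3.10.9). Alternatives were pseudocounts of 1 and 0.01, testing every gene above 0, testing genes averaging 1 TPM or more, median-of-ratios scaling, TPM over nuclear protein-coding genes, a fit to only the compared groups, a replicate block, eBayes without a trend, and each sample left out. The 9 genes, the role and marker lists and the tests were chosen with earlier results of these data known. Of other pathway genes, those named were, per role, up to 4 called for CJ28 against VEH with the largest change, averaging 1 TPM or more. SLC25A20, BDH1 and ACAT1, which were not called, were added after their values were seen. A few genes of the lists are not reported here.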

Additional observations from a re-analysis of the deposited data

Results flagged for a closer look

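PPARA in CJ28 replicate 1 had 2.49 TPM, against 3.63, 3.83 and 3.90 TPM in the other CJ28 samples. It stood far enough from them that its gap made up 0.839 of the group's range on the log2 scale, above Dixon's critical value at 95% for 4 samples. It was the only such value among 33 groups examined (the 9 genes and both ratios in each treatment group), and chance flags about 1 in 20 groups. Without that sample the log2 fold change of PPARA for CJ28 against VEH was 0.29 in place of 0.14.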

How the results depend on the processing

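For CJ28 against VEH, 8 members were called in place of 5 both after median-of-ratios scaling (4 higher, 4 lower, with 55.6% of all genes called) and over nuclear protein-coding genes alone (5 higher, 3 lower, with 65.6% of all genes called), and against MET 8 in place of 4 over nuclear protein-coding genes (65.6%). The sign turned for ACADM (0.11 and 0.16 against VEH, 0.11 against MET) and HADHB (0.14 and 0.19 against VEH, 0.18 against MET). All-gene calls for CJ28 against VEH were 3346 higher and 6231 lower, and 4925 and 4430 after median-of-ratios scaling (against MET, 3516 and 5818, then 4824 and 4391). All-gene calls for MET against VEH were 1, and 2 over nuclear protein-coding genes, 5 without a filter, 0 at a mean TPM of at least 1, 0 with a pseudocount of 1, 0 with 0.01, and 1 to 2 with a sample left out (2 without MET replicate 4 or VEH replicate 4). The side of the threshold, and the sign of called values, held in 153 of 153 member values over the alternatives for MET against VEH, 144 of 153 for CJ28 against VEH and 141 of 153 for CJ28 against MET, while the sign of values that were not called could turn. The causes of these changes were not tested. Same-numbered samples did not deviate together (correlations -0.12 to 0.039, and 2, 0 and 0 of 4 samples correlated best with their own number). With the replicate block, 9546 genes in place of 9577 and the same number of members, 5, were called for CJ28 against VEH, and ACADVL was called against MET (adjusted p = 0.0409 in limma). The paired sign-flip test of ratios (-0.39 and -0.38 for HADHA to HADHB, 0.33 for CPT1A to CPT2 against MET) gave p = 0.125, the smallest exact value for 4 pairs. Precision is limited by 4 samples per group. The authors give the number of reads of each library, but the reads behind each gene's value are unknown.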

Other observations

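Of the pathway genes, 14 were under the filter on low TPM and were not tested. FGF21, a hormone induced in fasting, was listed at 0.03, 0, 0 and 0 TPM in VEH, 0.24, 0.39, 0.27 and 0.32 TPM in CJ28, and 0, 0.04, 0.04 and 0 TPM in MET. PPARG, the receptor best known from fat cells, had 0.19 to 0.24 TPM in VEH and 0.46 to 0.75 TPM in CJ28. UCP3, an uncoupling protein homologue, had 0.41 to 0.68 TPM in VEH and 0.16 to 0.34 TPM in CJ28. For each of these 3 genes, which were picked out after their values had been seen, CJ28 and VEH did not overlap. ACADL, the long-chain dehydrogenase, did not exceed 0.10 TPM in any sample, and FABP1, the liver fatty acid binding protein, was listed at 0 in all 12.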
